A study of Mus musculus with 12 samples.

Results

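The genes of oxidative phosphorylation were described in 4 groups of conventional dendritic cells (cDCs) sorted from mouse spleen. Members were the protein-coding rows whose symbol begins with Nduf, Uqcr, Cox4 to Cox8 or Atp5, or is Sdha, Sdhb, Sdhc or Sdhd. The rule used names only and no measured value. It found 97 of the 55322 rows, 21821 of which are protein-coding, and 89 of the 97 passed the filter, a level of 1 FPKM or more in 3 or more of the 12 libraries. FPKM divides a gene's reads by its length and by the reads of the library. By complex, 46 members belong to complex I (45 passed), 4 to complex II (4 passed), 8 to complex III (8 passed), 21 to complex IV (15 passed) and 18 to complex V (17 passed). Atp5o is listed in 2 rows, and the short one held no read.

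Oxidative phosphorylation takes electrons from NADH through complex I and from succinate through complex II, passes them by complex III and cytochrome c to complex IV, and uses the proton gradient that this builds to make ATP in complex V. Most subunits are encoded in the nucleus, as all members here are, and are assembled with a few subunits made inside the mitochondrion. Dendritic cells shift between this pathway and glycolysis as they are activated. The mitochondrially encoded subunits were not analysed here, because the table lists 0 genes of chromosome M.

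The 4 groups, with 3 libraries each, were L-cDC1 and L-cDC2, and M-cDC1 and M-cDC2, all from naïve mice of 7 to 8 weeks. The letters L and M are used as the sample titles give them. The genotype label, which all 4 groups share, is Il7r-cre; Rosa26-lsl-tdTomato, a reporter that marks cells with a history of Il7r expression, whereas the design text calls the mice wild type C57BL/6J. In such a mouse lymphocytes are marked too, and no label states how the reporter entered the sort. Nor does one say that replicates came from different animals, so a p-value here sets a difference against a spread between samples that may be only technical. The summed FPKM of 7 cDC1 markers was 1307 to 1399 in the cDC1 libraries and 65.7 to 83.8 in the cDC2 libraries, and that of 5 cDC2 markers was 5.37 to 8.64 and 631 to 894, in the direction of the labels. Depth ran from 15879864 to 24498235 reads per library, so 3 reads on a gene of 1 kb were worth 0.122 to 0.189 FPKM.

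Summed over all members except Cox5b-ps and Ndufb11b, expression was higher in cDC1 than in cDC2. The sum was 7461 ± 209 FPKM (SD, n = 3) in L-cDC1, 8865 ± 1034 in M-cDC1, 6352 ± 117 in L-cDC2 and 6789 ± 467 in M-cDC2. M-cDC1 held the highest library, at 10053 FPKM, and the lowest cDC1 library, at 7235 FPKM in L-cDC1, lay below the highest cDC2 library, at 7275 FPKM in M-cDC2. Within L and within M the 2 subsets did not overlap. In complexes II, III and V all cDC1 libraries were above all cDC2 libraries. The lowest cDC1 and the highest cDC2 library stood at 361 and 342 FPKM in complex II, 902 and 775 FPKM in complex III, and 1652 and 1509 FPKM in complex V. In complexes I and IV the ranges met, with cDC1 from 2410 FPKM upward and M-cDC2 up to 2530 FPKM in complex I, and from 1873 and up to 2168 FPKM in complex IV. After scaling by median of ratios, the lowest cDC1 and the highest cDC2 library stood apart in complex I, at 2489 and 2331 FPKM. They also stood apart in the sum of all complexes, at 7471 and 6702 FPKM. Complex IV still overlapped, at 1934 and 1997 FPKM. These are levels per length in bulk RNA, so more cells of a kind and more RNA per cell cannot be told apart.

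**Figure D1:**
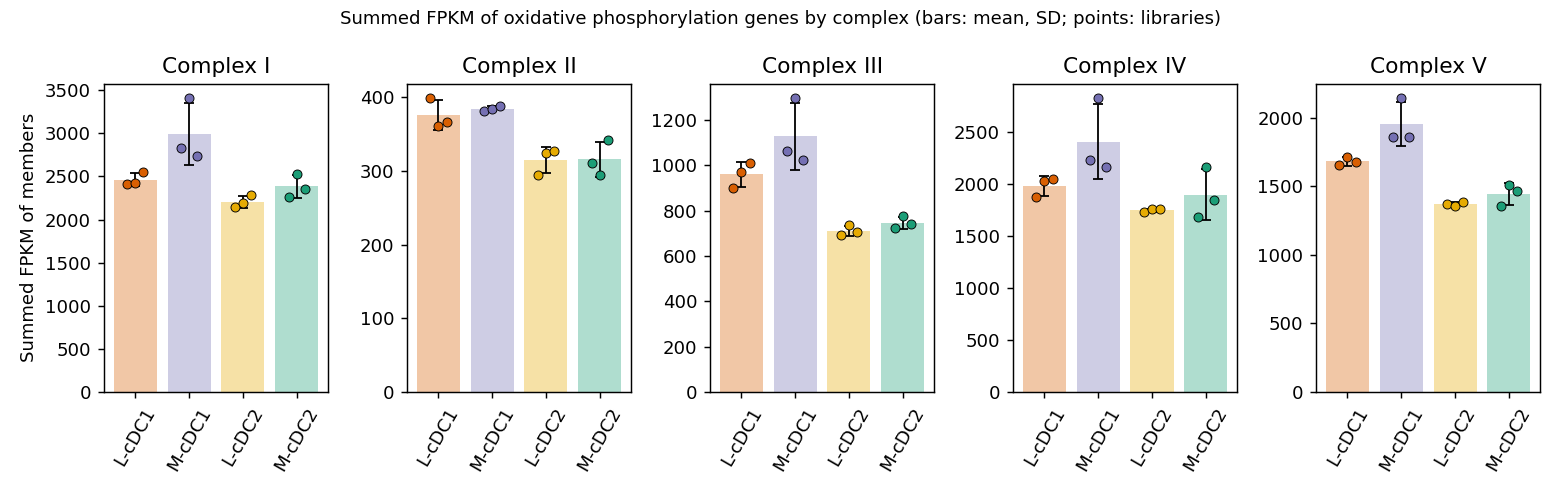
Summed FPKM of the members of each complex, without Cox5b-ps and Ndufb11b, in the 12 libraries (y axis, FPKM; x axis, group; bars, mean and SD of 3 libraries; points, libraries). In complexes II, III and V all 6 cDC1 libraries lie above all 6 cDC2 libraries, and 1 M-cDC1 library stands above the other two of its group in complexes I, III, IV and V.

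Members differed widely in level. The most abundant in each complex, by the mean over 12 libraries, were Ndufa1 (complex I, 228 FPKM), Sdhd (complex II, 147 FPKM), Uqcr10 (complex III, 176 FPKM), Cox8a (complex IV, 444 FPKM) and Atp5b (complex V, 280 FPKM). Such levels depend on the length by which the authors divided. Of 81 members with a principal transcript in the GENCODE M21 annotation, the deposited length exceeded that transcript more than 3 times in 14. For Atp5l, a small membrane subunit of complex V with a mean of 10.9 FPKM, it was 6443 bases against 544. The length is the same in all libraries, and it enters a difference in log2(FPKM + 1) through the added 1, which shrinks the differences of members at low FPKM such as Cox6b2 and Cox7a1.

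The comparison of cDC1 with cDC2 asks how the subsets differ within each of the M and L populations. Within M, 37 of 89 tested members (41.6%) were higher in M-cDC1 and 3 were lower, at an adjusted p under 0.05 in limma, with p-values adjusted over all 12434 genes tested. Over all genes tested 12.7% were higher and 25.4% lower (38.1% called). The median difference of the members, in log2(FPKM + 1), was 0.33, and that of all genes was -0.18. The 3 libraries of each subset did not overlap for 45 members that were higher in M-cDC1, against 16.9% of all genes, and for 6 that were lower, against 34.2%.

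Within L, 20 of 89 members (22.5%) were higher in L-cDC1 and 4 were lower in limma, where 12.9% of all genes were higher and 26.6% lower (39.5% called). The median log2 difference was 0.14 for the members and -0.19 for all genes. The libraries did not overlap for 33 members in the upward direction (16.0% of all genes) and 9 in the downward direction (32.7% of all genes). Both contrasts called 17 members higher, which are 17 of the 37 within M and 17 of the 20 within L, and 3 members lower, and no member was called in opposite directions. A scaling by median of ratios moved the median of all genes from -0.18 to -0.03 within M and from -0.19 to -0.04 within L. With it 60 members were higher and 1 lower within M, and 37 were higher and 3 lower within L, and among all calls within M the share that was higher went from 33.2% to 48.9%, within L from 32.7% to 48.7%.

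Markers of red cell precursors and platelets moved with this contrast. The summed FPKM of 8 such genes was 30.1 to 50.5 in L-cDC1 and 22.0 to 24.0 in M-cDC1, against 0.134 to 1.85 in L-cDC2 and 0.605 to 6.17 in M-cDC2. Pf4 and Ppbp, platelet genes, were at 0 in all cDC1 libraries. Their part in the difference was not tested.

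**Figure D2:**
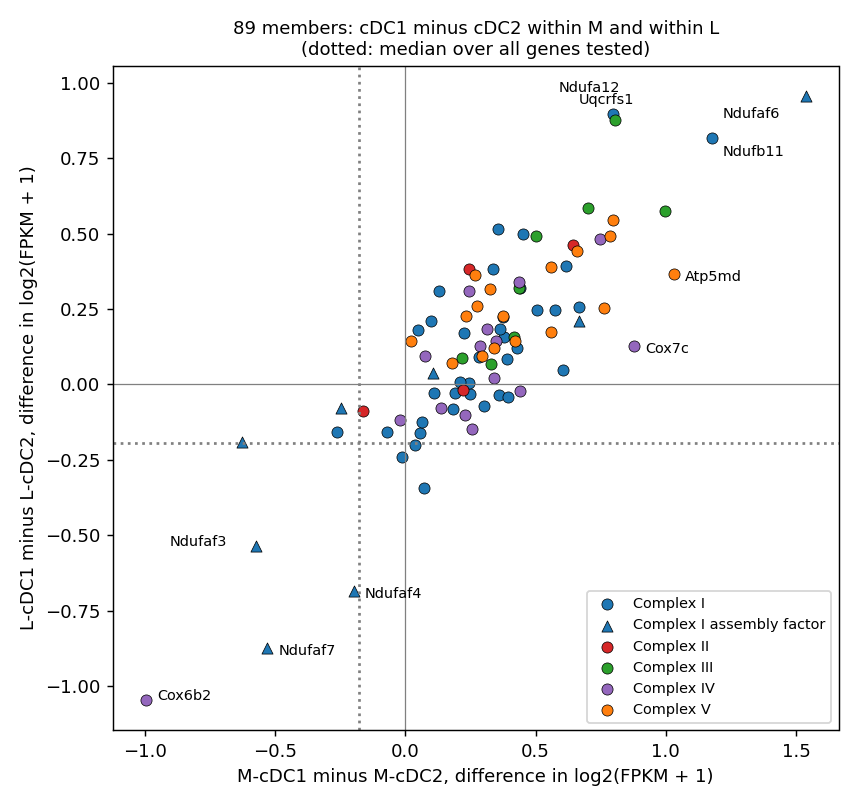
Difference between cDC1 and cDC2 of each of the 89 tested members within M (x axis) and within L (y axis), in log2(FPKM + 1), coloured by complex, with assembly factors of complex I as triangles. Most members lie above and to the right of the dotted medians of all genes (-0.18 and -0.19), all members of complexes III and V lie above 0 on both axes, and Ndufaf3, Ndufaf7 and Cox6b2 lie below 0 on both.

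Complex I, the NADH dehydrogenase, has core subunits that carry the redox centres, accessory subunits around them and assembly factors that are absent from the finished complex. Within M, 12 of 30 accessory subunits and 2 of 7 core subunits were higher in M-cDC1, where 12.7% of all genes were higher, and none of either was lower. Within L the counts were 5 of 30 (16.7%) and 1 of 7 (14.3%), near the 12.9% of all genes, again with none lower. The median log2 difference of the core subunits was 0.18 within M and -0.08 within L.

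The largest difference among the subunits within M was in Ndufb11, an accessory subunit of the membrane arm encoded on chromosome X (20481565 to 20483858, minus strand, in the deposited coordinates, whose build is not named). Its level was 155, 168 and 192 FPKM in L-cDC1 and 201, 241 and 200 FPKM in M-cDC1. In L-cDC2 it was 102, 96.2 and 92.1 FPKM, and in M-cDC2 98.0, 87.2 and 96.3 FPKM. All 6 cDC1 libraries were above all 6 cDC2 libraries. The log2 difference was 1.18 ± 0.11 (SE) within M (limma, adjusted p = 9.64e-07) and 0.82 ± 0.11 within L (adjusted p = 3.37e-05). Ndufb11 shares 117 exon bases of its 908 with Rbm10 on the other strand, at 16.9 to 27.5 FPKM, and the kits used do not mark strand, so reads in those bases cannot be told apart.

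Ndufa12, an accessory subunit of the peripheral arm, was at 45.6, 51.5 and 38.6 FPKM in L-cDC1 against 25.1, 24.0 and 22.1 FPKM in L-cDC2, a log2 difference of 0.90 ± 0.20 (limma, adjusted p = 0.00236). In M it was at 46.5, 61.2 and 52.5 FPKM in M-cDC1 against 23.5, 44.1 and 26.3 FPKM in M-cDC2, a log2 difference of 0.80 ± 0.20 (adjusted p = 0.00546). The groups did not overlap in either population, although M-cDC2 replicate 2 stood well above the other two of its group. Its processed pseudogene, Ndufa12-ps, was listed at 0.940 to 5.85 FPKM. Of the other subunits of complex I, Ndufa9 and Ndufs8 were higher in both populations. Ndufa9 differed by 0.45 ± 0.09 and 0.50 ± 0.09 and Ndufs8, a core subunit with iron-sulphur clusters, by 0.34 ± 0.12 and 0.38 ± 0.12. The calls of Ndufs8 were lost under 10 of 21 alternatives within M (adjusted p up to 0.155), among them leaving out M-cDC1 replicate 2 or 3 or any M-cDC2 replicate, and under 5 within L (up to 0.0873), among them leaving out L-cDC1 replicate 1 or 3 or L-cDC2 replicate 1 or 2.

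Assembly factors were called in both directions. Of 8 tested, 2 were higher and 2 lower in M-cDC1, and 1 was higher and 3 lower in L-cDC1. Of all genes, 12.7% were higher and 25.4% lower within M, and 12.9% and 26.6% within L, and with 8 factors nothing is read from the counts. Ndufaf6, needed for the assembly of early intermediates of the complex, was at 29.7, 27.8 and 36.4 FPKM in L-cDC1 and 36.9, 26.5 and 31.4 FPKM in M-cDC1, against 17.8, 14.4 and 14.6 FPKM in L-cDC2 and 12.8, 8.57 and 9.48 FPKM in M-cDC2. No cDC1 library overlapped a cDC2 library. The log2 difference was 1.54 ± 0.17 within M (limma, adjusted p = 6.17e-06), the largest of all members, and 0.96 ± 0.17 within L (adjusted p = 0.000448).

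Ndufaf7, a methyltransferase that modifies a core subunit during assembly, went the other way. It was at 12.5, 6.83 and 8.56 FPKM in L-cDC1 and 14.4, 17.7 and 20.7 FPKM in L-cDC2, a log2 difference of -0.87 ± 0.19 (limma, adjusted p = 0.00228). It was at 9.80, 11.1 and 12.9 FPKM in M-cDC1 and 16.9, 16.6 and 16.4 FPKM in M-cDC2, a difference of -0.53 ± 0.19 (adjusted p = 0.0406). The groups did not overlap, but the call within M was lost under 12 of 21 alternatives, among them both other scalings and the removal of M-cDC1 replicate 1 or 2 or of any M-cDC2 replicate, with an adjusted p of up to 0.223. Ndufaf3 was lower by 0.57 ± 0.15 within M (adjusted p = 0.00734) and by 0.54 ± 0.15 within L (adjusted p = 0.0103), and both calls were lost with either other scaling and in limma-voom. Ndufaf4, which works with Ndufaf3 in assembly, was lower in L-cDC1, at 4.57 to 5.18 FPKM against 7.62 to 10.2 FPKM (difference -0.68 ± 0.16, adjusted p = 0.00462, or 0.0596 with quantile normalization), and differed by -0.20 ± 0.16 within M (adjusted p = 0.374).

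Complex II, succinate dehydrogenase, also serves the tricarboxylic acid cycle and has 4 subunits. Sdhd, a membrane anchor, was at 184, 163 and 164 FPKM in L-cDC1 and 182, 187 and 166 FPKM in M-cDC1, against 118, 122 and 131 FPKM in L-cDC2 and 120, 91.5 and 134 FPKM in M-cDC2. All cDC1 libraries were above all cDC2 libraries, with log2 differences of 0.64 ± 0.12 within M (limma, adjusted p = 0.000999) and 0.46 ± 0.12 within L (adjusted p = 0.00913). Sdhb, the iron-sulphur subunit, differed by 0.24 ± 0.10 within M (adjusted p = 0.0791) and was higher by 0.38 ± 0.10 in L-cDC1 (adjusted p = 0.00935). The catalytic subunit Sdha differed by -0.16 and -0.09 and the anchor Sdhc by 0.22 and -0.02, all with adjusted p above 0.05 in limma.

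Complex III, the cytochrome bc1 complex, had the largest share of members called, with 6 of 8 higher within M and 5 of 8 within L and none lower. Of all genes, 12.7% were higher within M and 12.9% within L. The median log2 difference of complex III was 0.47 within M and 0.40 within L. With 8 members, no order of the complexes is read from the counts. Cyc1, a subunit of complex III that the rule does not match, was called in neither contrast. The call of Uqcrh within M was lost under 12 of 21 alternatives. Uqcrfs1, the Rieske iron-sulphur protein that hands electrons towards cytochrome c, was at 147, 135 and 156 FPKM in L-cDC1 and 144, 160 and 146 FPKM in M-cDC1. It was at 77.4, 76.1 and 83.6 FPKM in L-cDC2 and 104, 69.5 and 86.2 FPKM in M-cDC2. The subsets did not overlap, and the log2 difference was 0.81 ± 0.13 within M (limma, adjusted p = 0.00017) and 0.88 ± 0.13 within L (adjusted p = 7.92e-05).

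Among the small subunits of complex III, Uqcrb was at 201, 209 and 157 FPKM in L-cDC1 and 242, 297 and 167 FPKM in M-cDC1, against 117, 139 and 121 FPKM in L-cDC2 and 108, 112 and 123 FPKM in M-cDC2. Its log2 difference was 1.0 ± 0.17 within M (limma, adjusted p = 0.000458) and 0.58 ± 0.17 within L (adjusted p = 0.0177), with no overlap. The call within L was lost under 5 of 21 alternatives, among them leaving out L-cDC1 replicate 1 or 2 or L-cDC2 replicate 1 or 3 (adjusted p up to 0.0752). Uqcr11 was higher by 0.70 ± 0.14 and 0.59 ± 0.14, Uqcrq by 0.50 ± 0.10 and 0.49 ± 0.10, and the core protein Uqcrc2 by 0.44 ± 0.09 and 0.32 ± 0.09, within M and within L. The call of Uqcrc2 within L was lost without L-cDC1 replicate 3 or L-cDC2 replicate 3 (adjusted p up to 0.0558). Uqcrc1, the other core protein, differed by 0.22 ± 0.12 and 0.09 ± 0.12, and the highest member, Uqcr10, by 0.42 ± 0.26 and 0.16 ± 0.26, none of them called.

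Complex IV, cytochrome c oxidase, passes electrons to oxygen. Of its 11 tested subunits, 5 (45.5%) were higher in M-cDC1 and 2 (18.2%) in L-cDC1. Of all genes, 12.7% were higher within M and 12.9% within L, so the count within L is near that share. Cox7b, a small subunit encoded on the X chromosome, was at 96.6, 93.9 and 78.7 FPKM in L-cDC1 and 106, 130 and 97.4 FPKM in M-cDC1, against 58.4, 72.6 and 60.9 FPKM in L-cDC2 and 63.6, 66.7 and 65.5 FPKM in M-cDC2. The subsets did not overlap, and the log2 difference was 0.75 ± 0.12 within M (limma, adjusted p = 0.0003) and 0.48 ± 0.12 within L (adjusted p = 0.00712). Cox7c was at 125, 143 and 69.8 FPKM in M-cDC1 and 59.5, 56.5 and 58.4 FPKM in M-cDC2, a difference of 0.88 ± 0.20 (adjusted p = 0.00358). In L-cDC1 it was at 90.0, 78.7 and 66.0 FPKM, which overlapped L-cDC2 at 69.1, 70.7 and 72.9 FPKM (difference 0.13 ± 0.20, adjusted p = 0.645). Cox8a, the most abundant member, differed by 0.25 ± 0.16 within M and 0.31 ± 0.16 within L, neither called.

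Several subunits of complex IV have isoforms encoded by separate genes, some known from muscle, lung or testis. Cox4i2, Cox7b2, Cox8b, Cox8c and Ndufa4l2 held no read in any library, as did Ndufb11b, a copy of a complex I subunit. Cox6a2, the heart and muscle isoform, was at 0 in all cDC1 libraries and reached 2.29 FPKM in 1 L-cDC2 library. Cox6b2, known as the testis isoform, was detected throughout but made up 0.410 to 0.737% of the summed Cox6b1 and Cox6b2 FPKM in cDC1 libraries and 0.995 to 2.2% in cDC2 libraries. Its level was 1.24, 2.48 and 1.37 FPKM in L-cDC1 and 1.49, 2.73 and 2.55 FPKM in M-cDC1, against 3.07, 5.38 and 5.27 FPKM in L-cDC2 and 3.79, 5.63 and 7.22 FPKM in M-cDC2. All cDC2 libraries were above all cDC1 libraries. The log2 difference was -1.0 ± 0.27 within M (limma, adjusted p = 0.00911) and -1.05 ± 0.27 within L (adjusted p = 0.00645). On recovered reads in limma-voom the adjusted p was 0.07 within M and 0.0572 within L, and the call within M was also lost with quantile normalization. Cox7a1 lay near the filter, at 0.0851 to 2.51 FPKM, and Cox7a2 and the supercomplex factor Cox7a2l each made up 43.4 to 56.5% of the summed FPKM of these genes.

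Complex V, the ATP synthase, consists of the F1 head, which makes ATP, a central stalk, the c-ring that turns in the membrane, a peripheral stalk and small membrane subunits. All 17 tested members had a higher mean in cDC1 in both populations. Of all 12434 genes, 4504 had a higher mean in cDC1 within M and 4581 within L. Of the 17 members, 9 (52.9%) were called within M and 4 (23.5%) within L. Of all genes, 12.7% were higher within M and 12.9% within L. The F1 head and central stalk together gave 4 of 5 members called within M and 2 of 5 within L, and the c-ring 3 of 3 and 2 of 3. Of the peripheral stalk 1 of 4 and of the small membrane subunits 1 of 5 were called within M, and none within L. With so few members in each part, nothing is read from the counts by part.

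Atp5g3, Atp5g1 and Atp5g2 encode the same mature c subunit with different import sequences. Atp5g3 was at 89.8, 96.7 and 95.7 FPKM in L-cDC1 and 102, 123 and 109 FPKM in M-cDC1, against 66.8, 54.6 and 72.0 FPKM in L-cDC2 and 58.7, 65.4 and 66.3 FPKM in M-cDC2. Atp5g1 was at 24.5 to 37.4 FPKM in the cDC1 libraries and 20.5 to 21.9 FPKM in the cDC2 libraries. Neither overlapped between the subsets. Atp5g3 differed by 0.80 ± 0.11 within M (limma, adjusted p = 8e-05) and 0.55 ± 0.11 within L (adjusted p = 0.00175), and Atp5g1 by 0.79 ± 0.12 (adjusted p = 0.000168) and 0.49 ± 0.12 (adjusted p = 0.00562). Atp5g2 was higher by 0.56 ± 0.16 in M-cDC1 (adjusted p = 0.0117, or 0.107 without both M replicates numbered 2) and differed by 0.17 ± 0.16 within L (adjusted p = 0.406). The mean share of Atp5g3 in the 3 genes' summed FPKM was 56.0% in L-cDC1, 55.7% in M-cDC1, 51.7% in L-cDC2 and 53.4% in M-cDC2, a smaller spread than that between libraries of L-cDC2.

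In the F1 head, Atp5b, the catalytic beta subunit, was at 331, 319 and 306 FPKM in L-cDC1 and 321, 332 and 344 FPKM in M-cDC1, against 248, 235 and 245 FPKM in L-cDC2 and 242, 206 and 229 FPKM in M-cDC2. No library of one subset overlapped the other, and the differences were 0.56 ± 0.08 within M (limma, adjusted p = 0.000102) and 0.39 ± 0.08 within L (adjusted p = 0.00189). Atp5c1, the rotating gamma subunit of the central stalk, was higher by 0.66 ± 0.10 and 0.44 ± 0.10. Atp5a1, the alpha subunit that alternates with the beta subunit in the head, differed by 0.02 ± 0.14 within M (adjusted p = 0.922) and 0.14 ± 0.14 within L (adjusted p = 0.426). Its level was 216, 329 and 248 FPKM in M-cDC2, and M-cDC2 replicate 2 exceeded every cDC1 library. Atp5md, a small membrane subunit, was at 48.3, 61.2 and 32.5 FPKM in M-cDC1 against 21.6, 21.8 and 22.2 FPKM in M-cDC2, a difference of 1.03 ± 0.17 (adjusted p = 0.000337), and differed by 0.37 ± 0.17 within L (adjusted p = 0.11).

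**Figure D3:**
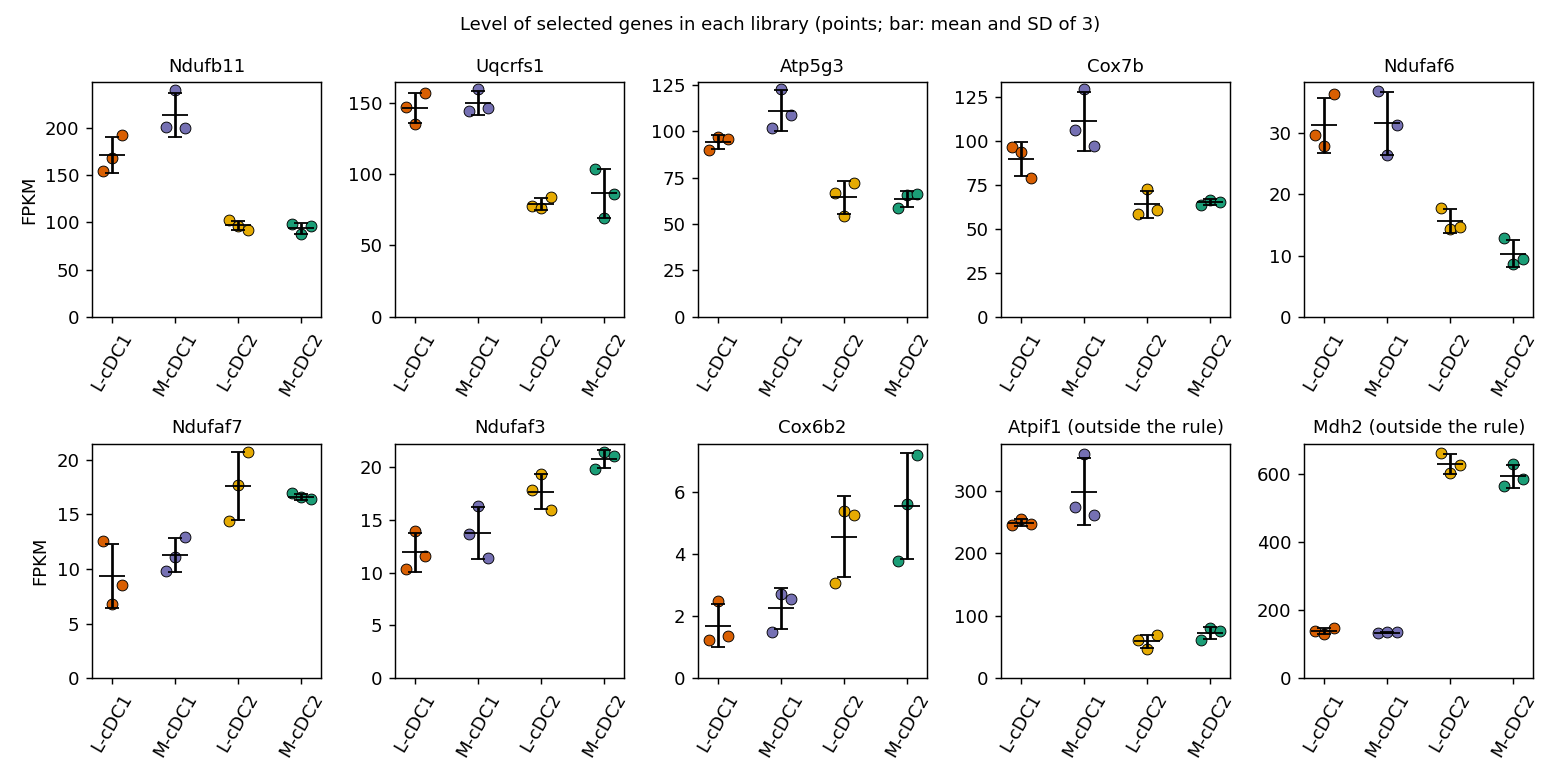
FPKM of 8 members and of 2 other genes of the pathway, Atpif1 and Mdh2, in each library (points, libraries; bar, mean and SD of 3; x axis, group). Within L and within M the cDC1 and cDC2 libraries are apart in all 10 panels, while for Ndufaf3 an M-cDC1 library (16.3 FPKM) lies above an L-cDC2 library (15.9 FPKM); Ndufaf7, Ndufaf3, Cox6b2 and Mdh2 are lower in cDC1 and the other 6 higher.

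Promoters of members were read to show the sequence beside the members that moved together. Nuclear genes of the pathway are known to be bound by NRF1, by GABP, a factor of the ETS family, and by YY1. RefSeq promoters of mouse build GRCm38.p6, from 250 bases before to 50 bases after the gene start, were matched by symbol to 77 of the 96 member symbols and gave 82 sequences. A match to the NRF1 motif (GCGC, then A and any base N, then GCGC) on either strand was found in 24.4% of member promoters, in 10.6% of promoters of tested protein-coding genes and in 4.60% of all promoters in the set. For the ETS motif CCGGAAG these shares were 23.2%, 19.5% and 8.86%, and for the YY1 motif (AAG followed by ATGGCGG) 7.32%, 2.28% and 0.852%. The ETS and YY1 motifs can share the letters AAG, so 1 stretch can hold both. Of the 30 members with a promoter that were higher in M-cDC1, 8 had the NRF1 motif (26.7%), and of the 45 other tested members 11 had it (24.4%). The ETS motif was found in 8 of the 30 and 11 of the 45, the YY1 motif in 5 and 1, and any of the 3 in 17 (56.7%) and 20 (44.4%), without a test. A match describes the letters only.

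Of the 17 members higher in cDC1 in both populations, 12 had a promoter, 3 of these with the NRF1 motif and 6 with any of the 3 motifs. The 6 promoters below were chosen after matches and calls were seen, to show sequence with and without a match, and their number with a match is no share of the members. They are those of all 3 with the NRF1 motif (Sdhd, Atp5g3 and Atp5c1), of 2 of the 6 with no match (Uqcrfs1 and Ndufb11) and of Ndufaf7, which was lower in both populations. They are written 5′ to 3′ on the strand of the gene, with matches to the 3 motifs on either strand in capitals.
Sdhd (chr9:50603800-50604099, GRCm38.p6, minus strand): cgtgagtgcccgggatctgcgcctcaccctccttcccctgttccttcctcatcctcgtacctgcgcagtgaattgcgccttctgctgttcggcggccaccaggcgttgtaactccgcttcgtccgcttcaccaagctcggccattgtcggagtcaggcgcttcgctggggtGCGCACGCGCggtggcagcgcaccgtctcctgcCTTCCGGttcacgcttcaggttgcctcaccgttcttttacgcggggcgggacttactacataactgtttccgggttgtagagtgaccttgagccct
Atp5g3 (chr2:73911277-73911576, GRCm38.p6, minus strand): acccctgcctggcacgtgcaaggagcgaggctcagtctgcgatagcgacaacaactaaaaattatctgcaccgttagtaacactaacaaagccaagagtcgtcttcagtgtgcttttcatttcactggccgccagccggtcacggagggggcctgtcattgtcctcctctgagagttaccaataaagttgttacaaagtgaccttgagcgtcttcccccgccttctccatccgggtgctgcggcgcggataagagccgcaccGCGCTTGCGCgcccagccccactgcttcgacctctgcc
Atp5c1 (chr2:10080383-10080682, GRCm38.p6, minus strand): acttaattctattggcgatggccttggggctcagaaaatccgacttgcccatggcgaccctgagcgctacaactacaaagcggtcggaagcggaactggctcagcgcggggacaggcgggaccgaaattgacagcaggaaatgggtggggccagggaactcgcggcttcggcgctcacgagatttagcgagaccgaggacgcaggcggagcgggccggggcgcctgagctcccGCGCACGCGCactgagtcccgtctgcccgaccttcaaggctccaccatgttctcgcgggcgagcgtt
Uqcrfs1 (chr13:30545267-30545566, GRCm38.p6, minus strand): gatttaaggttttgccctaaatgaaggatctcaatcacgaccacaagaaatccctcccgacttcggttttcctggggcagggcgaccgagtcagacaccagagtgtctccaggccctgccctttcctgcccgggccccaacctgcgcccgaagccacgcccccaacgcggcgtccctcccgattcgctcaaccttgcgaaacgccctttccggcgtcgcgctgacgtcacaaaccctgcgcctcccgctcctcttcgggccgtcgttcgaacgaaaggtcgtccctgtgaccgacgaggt
Ndufb11 (chrX:20617570-20617869, GRCm38.p6, minus strand): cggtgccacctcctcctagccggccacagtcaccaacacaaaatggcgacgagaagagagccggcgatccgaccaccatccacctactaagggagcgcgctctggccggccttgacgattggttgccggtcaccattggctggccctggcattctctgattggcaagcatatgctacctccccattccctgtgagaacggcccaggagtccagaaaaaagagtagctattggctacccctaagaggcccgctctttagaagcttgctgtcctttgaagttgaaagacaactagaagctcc
Ndufaf7 (chr17:78936885-78937184, GRCm38.p6, plus strand): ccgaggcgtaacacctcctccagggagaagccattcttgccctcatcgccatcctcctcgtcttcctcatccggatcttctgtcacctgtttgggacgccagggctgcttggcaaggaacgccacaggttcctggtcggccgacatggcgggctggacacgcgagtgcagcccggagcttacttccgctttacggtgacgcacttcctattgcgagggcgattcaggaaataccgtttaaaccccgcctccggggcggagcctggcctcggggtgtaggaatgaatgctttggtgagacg
Sdhd holds an NRF1 match from base 172 and an ETS match on the other strand from base 205, Atp5g3 an NRF1 match on the other strand from base 263, and Atp5c1, in the second of its 2 listed promoters, an NRF1 match from base 234, counted from the first base shown. Uqcrfs1, Ndufb11 and Ndufaf7 hold none of the 3 letter strings in these windows. The promoters of Uqcrb, Uqcrq, Uqcrc2, Cox4i1 and Ndufaf6 were not used here.

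Other genes of the pathway were taken from lists of regulators, assembly factors, the tricarboxylic acid cycle and carriers. The lists held 13, 41, 16 and 6 tested genes. Over these lists together 8 genes were higher and 8 lower within M and 9 higher and 10 lower within L. With median-of-ratios scaling the counts were 18 and 7, and 13 and 6. Among the calls over all genes, 33.2% were higher within M and 32.7% within L. With median-of-ratios scaling these shares were 48.9% and 48.7%. Of 41 tested assembly factors and subunits that the rule does not match, 5 were higher and 2 lower within M and 5 higher and 4 lower within L. The higher share is near that of all genes, 12.7% within M and 12.9% within L. The lower share is well under that of all genes, 25.4% within M and 26.6% within L. Cycs, cytochrome c, which carries electrons from complex III to complex IV, was at 67.7, 67.3 and 52.9 FPKM in L-cDC1 and 78.5, 97.2 and 62.3 FPKM in M-cDC1, against 30.0 to 32.9 FPKM in L-cDC2 and 33.9 to 34.7 FPKM in M-cDC2. It was higher by 1.16 ± 0.15 within M (limma, adjusted p = 2.44e-05) and 0.98 ± 0.15 within L (adjusted p = 0.000111), with no overlap. Cyc1, cytochrome c1 of complex III, differed by 0.13 ± 0.10 (adjusted p = 0.339) and 0.18 ± 0.10 (adjusted p = 0.188).

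Atpif1, the inhibitor of ATP synthase, showed a larger difference than any member. It was at 245, 255 and 246 FPKM in L-cDC1 and 274, 360 and 261 FPKM in M-cDC1, against 60.7, 46.8 and 68.4 FPKM in L-cDC2 and 61.7, 80.1 and 76.1 FPKM in M-cDC2. The lowest cDC1 library was far above the highest cDC2 library, and the log2 difference was 2.02 ± 0.15 within M (limma, adjusted p = 1.36e-07) and 2.08 ± 0.15 within L (adjusted p = 9.84e-08). Atpif1 is also high in red cell precursors, whose marker sums are given above, and their part in its difference was not tested. Sdhaf1, an assembly factor of complex II, was lower by 1.91 ± 0.32 within M (adjusted p = 0.000374) and by 0.99 ± 0.32 within L (adjusted p = 0.0269), and the call within L was lost under 8 of 21 alternatives, among them both other scalings and the removal of L-cDC1 replicate 1 or 3 or L-cDC2 replicate 2 or 3 (adjusted p up to 0.103).

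In the tricarboxylic acid cycle and pyruvate dehydrogenase, 2 of 16 genes were higher and 3 lower within M, and 1 was higher and 3 lower within L. Of all genes, 12.7% were higher and 25.4% lower within M and 12.9% and 26.6% within L, and the list's counts are near or under these shares. Mdh2, the mitochondrial malate dehydrogenase, was at 138, 130 and 147 FPKM in L-cDC1 and 132, 134 and 135 FPKM in M-cDC1, against 662, 603 and 625 FPKM in L-cDC2 and 565, 631 and 584 FPKM in M-cDC2. It was lower in cDC1 by 2.14 ± 0.08 within M (limma, adjusted p = 1.15e-10) and by 2.18 ± 0.08 within L (adjusted p = 1.04e-10). Pdha1, a subunit of pyruvate dehydrogenase, was lower by 0.81 ± 0.15 and 0.71 ± 0.15, and Dlst, a subunit of the 2-oxoglutarate dehydrogenase complex, by 0.64 ± 0.12 and 0.55 ± 0.12. Suclg1 was higher, by 0.62 ± 0.13 and 0.52 ± 0.13, and Sucla2, another subunit of succinyl-CoA ligase, by 0.45 ± 0.16 within M. That call of Sucla2 was lost under 8 of 21 alternatives, among them leaving out any M-cDC1 replicate or M-cDC2 replicate 1 or 2 (adjusted p up to 0.267).

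Of 13 tested regulators, 3 were lower and none higher within M, and 3 were lower and 1 higher within L. These counts are near the shares of all genes that were lower, 25.4% within M and 26.6% within L. Nrf1, which encodes the factor of that motif, was at 5.35, 5.46 and 5.67 FPKM in L-cDC1 and 6.13, 7.22 and 4.32 FPKM in M-cDC1, against 9.76, 9.41 and 8.35 FPKM in L-cDC2 and 9.99, 10.5 and 9.02 FPKM in M-cDC2. The subsets did not overlap, and Nrf1 was lower in cDC1 by 0.67 ± 0.16 within M (limma, adjusted p = 0.00458) and by 0.65 ± 0.16 within L (adjusted p = 0.00565). Both calls were lost with quantile normalization, at adjusted p of 0.0671 and 0.0715. Gabpb1, a subunit of GABP, was lower by 0.97 ± 0.21 and 0.80 ± 0.21, the latter not called with quantile normalization (adjusted p = 0.0547). Esrra was lower by 0.75 ± 0.20 within M, and Tfam, which packages and transcribes mitochondrial DNA, by 1.02 ± 0.15 within L, where Tefm was higher by 0.65 ± 0.23. The call of Esrra was lost with quantile normalization and without both M replicates numbered 2 (adjusted p up to 0.085), and that of Tefm under 7 of 21 alternatives, among them leaving out L-cDC1 replicate 1 or 3 or L-cDC2 replicate 2 or 3 (adjusted p up to 0.157). Among 6 carriers and pores, 1 was higher within M (Vdac2, by 0.52 ± 0.10) and 2 within L (Vdac2, by 0.36 ± 0.10, and Slc25a5, an ATP/ADP carrier, by 0.31 ± 0.10). Of all genes, 12.7% were higher within M and 12.9% within L, and with 6 genes nothing is read from the counts. The call of Vdac2 within L was lost without L-cDC2 replicate 2 (adjusted p = 0.0557) and that of Slc25a5 without replicate 1 or 2 of either L group (up to 0.0806).

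The comparison of L with M asks how cDCs of the population that the study titles as lymphoid in origin differ from the others within a subset. In cDC1, no member was called in limma, where 0.394% of all genes were called (0.354% higher and 0.0402% lower in L-cDC1), nor in limma-voom. At an unadjusted p under 0.05, 30 of 89 members passed, and 1278 of 12434 genes did. The mean of 86 of 89 members was lower in L-cDC1, as was that of 46.9% of all genes. The median difference of the members was -0.26 and that of all genes 0.02. In 31 members (34.8%) all L-cDC1 libraries were below all M-cDC1 libraries, against 5.63% of all genes, and in none were they all above, against 8.28%.

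The smallest p-values in this contrast, read after the values were seen, were in Ndufa6, Cox5b and Cox7a2. Ndufa6, an accessory subunit of complex I, was at 60.6, 68.3 and 62.2 FPKM in L-cDC1 and 85.2, 90.8 and 80.2 FPKM in M-cDC1, a difference of -0.42 ± 0.10 (limma, adjusted p = 0.0914). Cox5b, a subunit of complex IV, was at 66.3, 66.6 and 72.4 FPKM against 89.8, 103 and 83.9 FPKM, a difference of -0.42 ± 0.10 (adjusted p = 0.109). The groups of both were apart, and neither passed the threshold. By complex the median difference was -0.24 in complex I, -0.11 in II, -0.20 in III, -0.30 in IV and -0.27 in V.

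M-cDC1 replicate 2 was the highest of its group in 70 of 89 members, and in 29.6% of all genes. Without it 82 of 89 members still had a lower mean in L-cDC1, against 49.1% of all genes. The median difference was then -0.17 (all genes 0.00), and 31 members (34.8%) were apart and lower, against 8.96% of all genes. Without M-cDC1 replicate 3, 1 member was called: Cox7c differed by -0.78 ± 0.13 (limma, adjusted p = 0.0299). Markers of other cells moved with L against M as well. The summed FPKM of 12 B cell genes was 598 to 945 in L-cDC1 and 307 to 357 in M-cDC1, that of 10 T and NK cell genes 11.3 to 18.6 and 0.474 to 0.954, and that of 7 monocyte and macrophage genes 324 to 334 and 426 to 484. Nearly all of the last sum was Lyz2, at 318 to 329 FPKM in L-cDC1 and 418 to 474 FPKM in M-cDC1. Nearly all of the B cell sum in M-cDC1 was Ighm, at 293 to 343 FPKM there and 349 to 416 FPKM in L-cDC1. Igkc was at 137 to 404 FPKM in L-cDC1 and 1.37 to 2.93 FPKM in M-cDC1. In M-cDC1 the B cell genes Pax5 and Iglc2, the T and NK cell genes Cd3g, Trac and Klrb1c and the monocyte and macrophage gene Fcgr1 were at 0 in all 3 libraries. Their part in the difference was not tested.

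**Figure D4:**
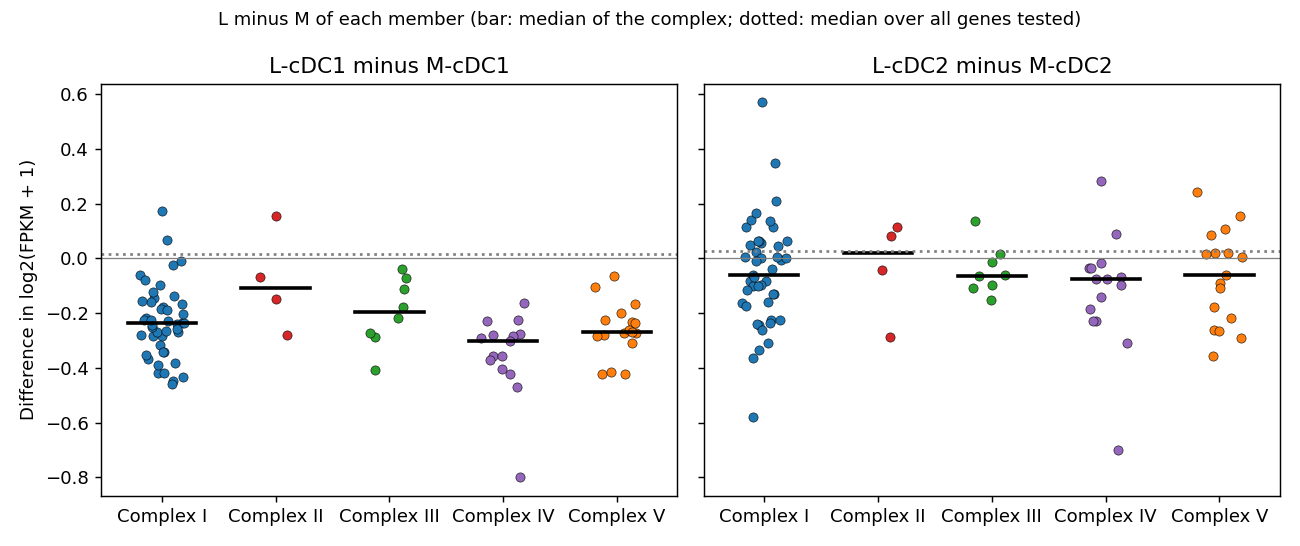
Difference between L and M of each of the 89 tested members in cDC1 (left) and in cDC2 (right), in log2(FPKM + 1), by complex (points, members; bar, median of the complex; dotted line, median of all genes tested). In cDC1 86 members lie below 0 and the median of every complex is below the dotted line at 0.02; in cDC2 the members lie on both sides of 0.

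In cDC2, no member was called in limma, where 1.83% of all genes were called (1.04% higher and 0.788% lower in L-cDC2), nor in limma-voom. At an unadjusted p under 0.05, 6 of 89 members passed, and 1267 of 12434 genes did. The median difference was -0.07, and that of all genes was 0.03. The mean in L-cDC2 was higher in 33 members and lower in 56, and it was lower in 45.2% of all genes. In 6 members the L-cDC2 libraries were all above the M-cDC2 libraries (9.96% of all genes) and in 10 all below (6.92% of all genes). Ndufaf6 differed by 0.57 ± 0.17 (adjusted p = 0.14), from 8.57 to 12.8 FPKM in M-cDC2 to 14.4 to 17.8 FPKM in L-cDC2. The summed B cell genes were at 962 to 3428 FPKM in L-cDC2 and 407 to 447 FPKM in M-cDC2. Most of the sum in M-cDC2 was Ighm, at 312 to 332 FPKM there and 494 to 950 FPKM in L-cDC2. Igkc was at 270 to 1977 FPKM in L-cDC2 and 2.07 to 2.23 FPKM in M-cDC2. The T and NK cell genes were at 36.9 to 101 and 2.07 to 2.48 FPKM, and the monocyte and macrophage genes at 316 to 472 and 1008 to 1216 FPKM. The part of these markers was not tested.

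The interaction, the L minus M difference in cDC1 less that in cDC2, tests whether the subsets differ in this respect, and equally whether the difference between cDC1 and cDC2 is another in L than in M. No member was called in limma (0.298% of all genes, 0.193% above and 0.105% below 0) or in limma-voom, and 10 of 89 passed an unadjusted p under 0.05, against 1061 of 12434 genes. Its median was -0.20 over the members and 0.00 over all genes. The smallest adjusted p was 0.178, for Ndufa6 (-0.56 ± 0.14), followed by Cox7a2 (-0.46 ± 0.13, adjusted p = 0.245). The larger count of members higher in cDC1 within M than within L is thus not shown to be a difference for any 1 gene, except that Cox7c was called without M-cDC1 replicate 3 (-1.06 ± 0.17, adjusted p = 0.039). The contrasts share the M-cDC1 libraries, and the members' values in both are those given above.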

How the data were processed

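RNA of 12 sorted samples was sequenced from SMART-Seq HT and Nextera XT libraries, per the labels' protocols. The deposited values are FPKM computed by the authors per gene. For the steps before that, the submitters' processing notes list the aligner STAR 2.7.9a, the counter featureCounts 2.0.1, the trimming tools cutadapt 3.7, Trimmomatic 0.39 and Trim Galore 0.6.7, and DESeq2 1.20.0, with the human build GRCh38, although the symbols are those of the mouse; the build of the deposited coordinates is not given in the sources used here. FPKM times gene length gave whole reads, within 0.01 read, for 100% of values, and limma-voom was run on these reads as an alternative.

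Genes at 1 FPKM or more in 3 or more libraries were tested (12434). Values were taken as log2(FPKM + 1), which understates changes of low genes. One linear model, with a mean for each group, covered the 12 libraries (limma 3.58.1, trend option on, R 4.3.3), and p-values were adjusted by Benjamini-Hochberg over all genes in each contrast. The code was tested on simulated data. Levels are FPKM, with mean ± SD of 3 libraries; errors of differences are standard errors. Calls required an adjusted p under 0.05, and groups "did not overlap" when every library of one was above every library of the other. Intervals for counting error were not used, and PCR duplicates could not be told apart.

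The members and gene lists were chosen with earlier results of these data known. Members named by rule were the 10 called with the largest differences in each contrast, the one with the smallest p within M and the most abundant one in each complex, members that failed the filter, isoform groups and the Sdh genes, and of other lists the 3 largest called differences, with Cyc1 and Cycs. Other names (among them Ndufa6, Ndufa9, Ndufs8, Ndufaf3, Cox5b, Uqcrc1, Uqcrc2, Uqcrq, Atp5a1, Atp5c1 and Sucla2) were chosen after their values were seen. Reads of the 17 pseudogene rows with a member's name came to 0.0258% of the members' reads, and 35 members share exon bases with another gene. Promoter letters were searched with Python 3.11.15.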

Additional observations from a re-analysis of the deposited data

How the results depend on the processing

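No call of a named gene changed direction under any of 21 alternatives. Of the 89 calls followed, members and other pathway genes together, 55 were kept under every alternative. The rest were lost under at least 1. With median-of-ratios scaling 61 members were called within M (40 as reported) and 40 within L (24 as reported), and with limma-voom 60 and 37. With quantile normalization these counts were 45 and 29. Of the other genes of the pathway, median-of-ratios scaling called 25 within M, 18 higher and 7 lower (16 as reported, 8 higher and 8 lower). Quantile normalization called 12 higher and 5 lower, and limma-voom 15 and 7. Within L the 9 higher and 10 lower as reported became 13 and 6, 14 and 4, and 13 and 6. Among the calls over all genes within M, 33.2% were higher as reported, and 48.9%, 53.4% and 47.9% with these alternatives in turn. Within L the shares were 32.7%, and 48.7%, 52.6% and 47.6%. Leaving out 1 library at a time gave 32 to 42 members within M, 19 to 27 within L, 0 to 1 for L against M in cDC1, 0 in cDC2 and 0 to 1 for the interaction; the 1 came without M-cDC1 replicate 3. Without both M replicates numbered 2, chosen after seeing the data, 30 members were called within M and 28 within L. Calls within M of Cox6c, Ndufb9, Atp5d, Uqcrh, Ndufaf7 and Ndufs8 were lost under 10 or more of 21 alternatives.

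With the replicate number as a block, 41 members were called within M and 24 within L, and 0 in the other contrasts, while of other pathway genes 1 was called for L against M in cDC2 (Sdhaf1, limma adjusted p = 0.0496). The fit reported above did not take the numbers as pairing samples, and no label says that they do. In their deviations from group means, same-numbered libraries correlated at -0.0017 to 0.156 and differently numbered ones at -0.153 to 0.0885. The same-numbered values lean higher, so these correlations do not show that the numbers are unrelated.

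With 3 libraries a group, a count of 0 called members does not show equal levels. Depth limits the alternative isoforms, where 3 reads were worth 0.122 to 0.189 FPKM on 1 kb.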

Other observations

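Single libraries stood apart in a few members, read after their values were seen. In M-cDC2 replicate 2, the shallowest library, Ndufa2 was at 330 FPKM against 126 and 166 FPKM in the other replicates, Ndufb6 at 135 against 45.8 and 59.4 FPKM, and Uqcr10 at 255 against 111 and 149 FPKM. Sdhaf1 was there at 20.4 FPKM against 7.80 and 12.3 FPKM. In M-cDC1 replicate 2 all 20 tested members shorter than 1 kb were the highest of the group, as were 70 of all 89 members. The median deviation there from the group mean, in log2(FPKM + 1), was 0.28 for these 20 members. It was 0 for all 1775 tested genes shorter than 1 kb.

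Cox5b-ps, which the table types as protein-coding although its name marks a pseudogene of Cox5b, was at 5.97 to 15.8 FPKM, in a row of 390 bases. Members other than Cox5b-ps and Ndufb11b took 1.90 to 2.61% of the summed FPKM of a library.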
